A study of Mus musculus with 57 samples.

Results

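The mitochondrial respiratory chain is built from subunits of 5 complexes, and the genes described here are those that the nucleus supplies. Members were chosen by symbol: every gene listed in both deposited count tables whose symbol starts with Ndufa, Ndufb, Ndufc, Ndufs, Ndufv, Uqcr, Cox4i, Cox5, Cox6, Cox7, Cox8 or Atp5, or is Sdha, Sdhb, Sdhc, Sdhd or Cyc1, without pseudogene symbols. This gave 91 of the 34958 genes that both tables share. By symbol, 38 belong to complex I, 8 are complex I assembly factors (Ndufaf), 4 belong to complex II, 9 to complex III, 18 to complex IV and 14 to complex V, the ATP synthase. A further 10 symbols that meet the rule stood in the table of the sex experiment alone and 2 in that of the LPS experiment alone, and these were not counted as members.

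Complex I takes electrons from NADH and complex II, which is also the succinate dehydrogenase of the tricarboxylic acid cycle, takes them from succinate. Both pass them through ubiquinone to complex III, and cytochrome c carries them on to complex IV, where oxygen is reduced, while complex V uses the resulting proton gradient to make ATP. In macrophages, activation by bacterial lipopolysaccharide (LPS) is known for a shift towards glycolysis and for changes in how the chain is used, with succinate dehydrogenase as a known point of control.

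The RNA came from CD11b-positive cells of mouse brain, labelled as microglia, of wild-type (WT) mice and of littermates lacking P2RY12 (KO), a nucleotide receptor of microglia. How the KO allele was made is not given in the sources used here. In the sex experiment, adult mice with no treatment label formed 4 groups: male WT (MWT, 4 columns), male KO (MKO, 5), female WT (FWT, 4) and female KO (FKO, 5). The LPS experiment crossed WT and KO with the labels LPS, which the treatment text gives as 1 mg/kg into the peritoneum, and ns, which is not spelled out and is used as written. No sex is labelled for the LPS experiment, and neither the age in numbers nor the time after injection is given. Libraries were described as polyadenylated RNA, although a batch field reads Total RNA, and nothing labelled states that each library is a separate animal, so the p-values measure the spread between libraries, which may in part be technical. In bulk RNA, fewer cells of a type and less RNA per cell cannot be told apart.

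Column totals ran from 58.5 to 319 M counts (M, mega) in the sex experiment and from 15.9 to 168 M in the LPS experiment. The part of counting error in the spread of single members was not measured. P2ry12 stood at 309 to 526 CPM (a count relative to its scaled library total in M counts) in KO and at 3007 to 5928 CPM in WT columns of the sex experiment. The LPS library names fall into 2 sets and end in a library number, and the 4 WT libraries of number 2 went against their labels. Those labelled WT ns had 481 and 927 CPM of P2ry12 and 1781 and 2491 CPM of the acute-phase gene Saa3, and those labelled WT LPS had 4461 and 12154 CPM of P2ry12 and 1.59 and 3.21 CPM of Saa3. In the other WT libraries P2ry12 was 3516 to 5406 CPM with ns and 400.3 to 1063 CPM with LPS, and in KO it was 585 to 1243 CPM with ns and 84.2 to 154 CPM with LPS. These 4 libraries were therefore kept as groups of their own, which left 6 WT ns, 6 WT LPS, 8 KO ns and 8 KO LPS samples, and WT LPS 8 and 9, the closest pair of columns, were summed as 1 sample.

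Further libraries stood apart in the respiratory chain genes themselves, most of them with library number 2 or 3 of set 2. Summed over the 91 members, the 24 samples outside those 8 libraries lay between 3205 and 5195 CPM, or 0.320% to 0.519% of the library. Of the 8, WT LPS 7 had 15323 CPM, KO ns 6 had 12419 CPM and KO LPS 5 had 9749 CPM. The library labelled WT LPS 6 had 9426 CPM, the one labelled WT ns 5 had 7068 CPM and KO ns 5 had 4573 CPM. KO LPS 6 with 4873 CPM and WT ns 6 with 3209.6 CPM did not stand out. The sums of KO ns 5 and KO ns 6 exceeded those of every other KO ns sample.

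**Figure D1:**
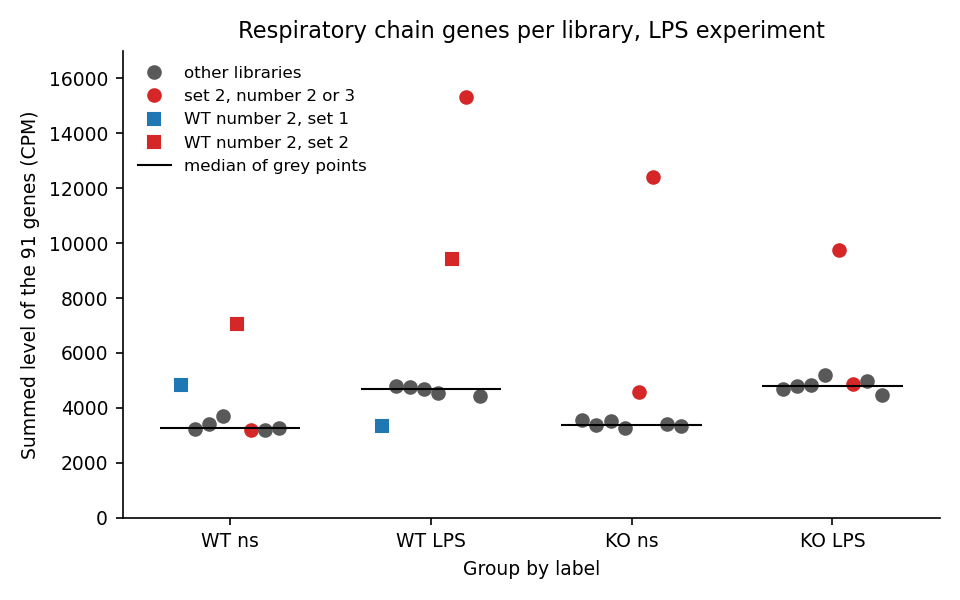
Summed level of the 91 respiratory chain genes in each sample of the LPS experiment (CPM, linear axis from 0) by labelled group; lines are medians of the grey points. Grey points lie between 3205 and 5195 CPM with LPS above ns in both genotypes, while red points, the libraries of set 2 with number 2 or 3, reach 15323 CPM, and the blue squares, WT number 2 of set 1, lie at the level of the opposite label.

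Other measures moved in the same libraries. Ribosomal protein genes summed to as much as 82662 CPM against 10459.8 to 19852 CPM in the other 24 samples, and mitochondrially encoded subunits to as much as 105067 CPM against 7729 to 16347 CPM. The mean log2 CPM of genes with transcripts over 5000 bases minus that of genes under 1500 bases, members left out, was between -0.63 and 0.74 in those 8 libraries and between 0.52 and 0.82 in the others. By annotated length, respiratory chain transcripts were short: their median was 683 bases, and 79 of the 85 tested (92.9%) were under 1500 bases, against 32.1% of 12584 other tested genes. The length of a gene here is the median over all its annotated protein-coding transcripts, with no selection of full-length ones. It can therefore understate the main transcript, as may be so for Uqcrc1 (533 bases) and Ndufs1 (651 bases). Not every member followed. Uqcrc1, a core subunit of complex III, stood at 31.8 CPM in KO LPS 5, where the 6 KO LPS samples outside that block had 111 to 122 CPM, and Cyc1 at 29.9 CPM against 74.8 to 84.8 CPM. The part of RNA quality or length in these libraries was not tested.

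**Figure D2:**
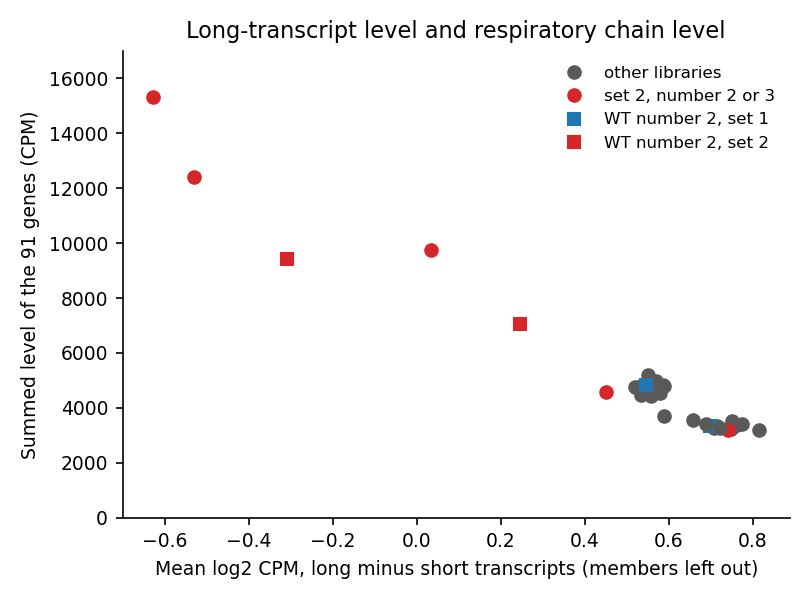
Summed level of the 91 genes (CPM) against the mean log2 CPM of long minus short transcripts, members left out, 1 point per sample of the LPS experiment. The libraries of set 2 with numbers 2 and 3 run from 0.74 down to -0.63 as the sum rises to 15323 CPM, and the other 24 samples sit between 0.52 and 0.82.

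Results of the LPS experiment are therefore given from all 32 samples and, beside that, from the 24 samples left when set 2 numbers 2 and 3 are left out of all 4 groups alike. That second set of samples was chosen after these sums were seen. It holds 5 WT ns, 5 WT LPS, 6 KO ns and 6 KO LPS samples, with the 2 remaining WT libraries of number 2 still apart. The biological coefficient of variation, which is the spread between replicates beyond counting noise, was 41.0% over 32 samples and 22.8% over 24.

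The first comparison was LPS against ns within each genotype. With LPS, most respiratory chain genes were higher in WT and in KO cells once the 8 libraries were left out, with a median fold of 1.41 in KO and 1.34 in WT, and the supercomplex-associated gene Cox7a2l was lower in both. With all 32 samples, fewer members passed the test. A gene is called here where edgeR's quasi-likelihood F test gave a Benjamini-Hochberg adjusted p under 0.05 over all genes tested, of which 85 members passed the filter on low counts. The other 6 (Cox4i2, Cox7a1, Cox7b2, Cox8b, Cox8c and Ndufa4l2) never exceeded 75 counts in a library.

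In KO over all samples, 10 members were higher, where 13.1% of all genes tested were, and 1 was lower, where 15.2% were. The 10 were Cox6a2, Atp5g1, Uqcrq, Atp5g3, Cox5a, Atp5b, Ndufb7, Cyc1, Ndufa10 and Atp5d, and the median of the 85 was 0.23 on the log2 scale. In WT, 43 members were higher, against 14.8% of all genes, and 0 were lower, against 15.5%, with a median of 0.86. The 10 members called higher in KO were all among the 43. With WT number 2 left in its labelled groups, 8 members were higher in KO, where 10.3% of genes were, and 0 in WT, where 0% of all genes passed. There, 43 members had an unadjusted p under 0.05 in WT, as did 22.7% of all genes. Without KO ns 6 alone, 34 members were called in KO, where 29% of all genes were called in either direction. Without WT LPS 7 alone, 12 were called in WT, where 24.7% of all genes were. DESeq2 called 12 members in KO, against 31.8% of all genes, and 54 in WT, against 34.9%, over the 32 samples with those libraries apart.

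In the 24 samples, 73 of 85 members were higher in KO and 1 lower, against 26.7% and 27.1% of all 15810 genes tested. In WT, 65 were higher and 1 lower, against 24.8% and 28.4%. The median log2 fold change of the 85 was 0.49 in KO and 0.43 in WT, while that of all genes was -0.01 and -0.03. Of the 85, 64 were higher in both genotypes, Cox7a2l was lower in both, 9 were called in KO alone, 1 in WT alone and 10 in neither. Within library set 1 by itself, 64 were higher and 1 lower of 86 in KO, and 59 and 1 in WT, where 44.9% and 42.6% of all genes were called in either direction and the medians of the members were 0.53 and 0.46. Within set 2 by itself, which holds the 8 libraries, 0 members were called in either genotype, against 4.65% of all genes in KO and 3.62% in WT. The medians there were 0.14 in KO and 1.35 in WT.

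Values beside this result were as follows, all with WT number 2 apart. In the 24 samples the long-minus-short measure was 0.52 to 0.59 with LPS and 0.59 to 0.82 with ns. Other tested genes with transcripts under 1500 bases had median changes of 0.07 in KO and 0.02 in WT on the log2 scale, and 32.9% and 29.7% of them were higher. Ribosomal protein genes had medians of 0.51 and 0.48, with 70 and 68 of 79 higher. Of the 8 microglia markers, 1 was higher and 4 lower in KO and 1 higher and 5 lower in WT. They summed to 21589 to 36717 CPM in WT ns, 16752 to 24475 CPM in WT LPS, 27638 to 31843 CPM in KO ns and 20636 to 25172 CPM in KO LPS. Of the 8 neutrophil markers, 0 were called in KO and 2 were lower in WT. They summed to 318 to 17265 CPM in WT ns, 1664 to 3421 CPM in WT LPS, 287 to 7370 CPM in KO ns and 990.4 to 3563 CPM in KO LPS. Markers of other brain cells were at lower levels than these. Both tested endothelial markers, of 3 in the table, were lower in each genotype, and the sum went from 58.9 to 74.2 CPM in KO ns to 22.3 to 36.03 CPM in KO LPS and from 45.0 to 56.9 CPM in WT ns to 14.1 to 33.7 CPM in WT LPS. Of 3 tested oligodendrocyte markers, of 4 in the table, 3 were lower in KO and 2 in WT, with sums of 95.3 to 114 and 69.6 to 85.8 CPM in KO ns and LPS and of 108 to 121 and 75.9 to 82.4 CPM in WT. Of 4 astrocyte markers, 2 were higher and 1 lower in KO and 1 higher and 1 lower in WT, and their sum was 216 to 284 CPM in KO ns and 131 to 179 CPM in KO LPS, while the WT ranges overlapped. Sums of monocyte, border-associated macrophage, B cell, T and NK cell, neuron and erythroid markers overlapped between LPS and ns in both genotypes. The part of these in the result was not tested.

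Summed over all 91 members, the 5 WT ns samples of the 24 ran from 3205 to 3695 CPM (median 3256) and the 5 WT LPS samples from 4424 to 4800 CPM (median 4704). The 6 KO ns samples ran from 3254 to 3577 CPM (median 3392) and the 6 KO LPS samples from 4477 to 5195 CPM (median 4815). Within these samples, which were chosen after the sums were seen, LPS and ns did not overlap in either genotype. The KO and WT ranges overlapped under both labels. Over all KO samples LPS and ns did overlap: KO ns 5 with 4573 CPM and KO ns 6 with 12419 CPM exceeded KO LPS 8 with 4477 CPM. Over all WT samples with number 2 apart they did not.

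**Figure D3:**
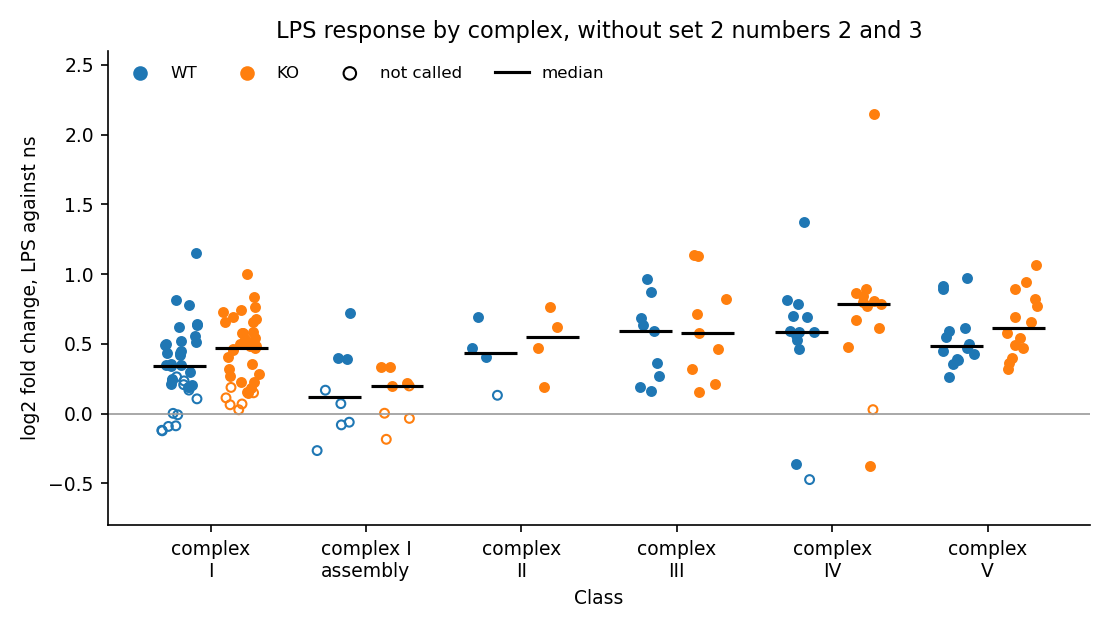
log2 fold change of LPS against ns for each of the 85 tested members by class, without set 2 numbers 2 and 3; blue is WT, orange is KO, open circles were not called and bars are class medians. Complexes II, III and V have every tested member above 0 in both genotypes. Complex I assembly factors have the lowest medians (0.20 in KO, 0.12 in WT), and the filled points below 0 are Cox7a2l.

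The following values by complex are from the 24 samples unless another number is given. Complex I, the entry point for NADH, had 31 of 37 tested members higher in KO and 25 in WT, with medians of 0.47 and 0.34. Its largest change was in Ndufa12, an accessory subunit. Ndufa12 had 10.5, 11.0, 13.0, 10.1 and 10.6 CPM in the WT ns samples and 28.03, 25.3, 20.7, 22.5 and 26.9 CPM in WT LPS. In KO it ran from 10.2 to 13.8 CPM (median 12.9) with ns and from 23.1 to 25.98 CPM (median 23.98) with LPS. Every LPS sample of the 24 was above every ns sample of its genotype. The log2 fold change was 1.15 ± 0.10 (SE, adjusted p = 6.24e-09) in WT and 1.00 ± 0.09 (adjusted p = 1.05e-08) in KO.

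Ndufs1 and Ndufv1 carry redox centres of the arm of complex I that oxidises NADH. Ndufs1 was 57.5, 61.7, 52.2, 67.0 and 56.6 CPM in WT ns and 88.1, 78.1, 82.6, 73.0 and 82.1 CPM in WT LPS, a change of 0.45 ± 0.07 on the log2 scale (adjusted p = 1.13e-05). In KO it rose from a median of 59.6 to 80.6 CPM, 0.48 ± 0.06 (adjusted p = 1.31e-06). Ndufv1 changed less: 0.23 ± 0.08 in KO (adjusted p = 0.0223) and 0.21 ± 0.09 in WT, which did not pass (adjusted p = 0.0545). Ndufv3, another subunit of that arm, had the smallest value of the complex in KO. Ndufv3 was 31.7, 35.4, 32.7, 30.7 and 32.9 CPM in WT ns and 28.3, 30.3, 30.3, 31.6 and 30.2 CPM in WT LPS, and the ranges overlapped. Its log2 fold change was -0.12 ± 0.07 in WT (adjusted p = 0.177) and 0.03 ± 0.07 in KO (adjusted p = 0.752). Ndufa6, Ndufa9, Ndufb3, Ndufb4 and Ndufs4 were likewise called in neither genotype. Over all 32 samples, 2 members of the complex were called in KO, Ndufa10 at 0.54 ± 0.10 (adjusted p = 0.000118) and Ndufb7 at 0.61 ± 0.18 (adjusted p = 0.012).

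Ndufa4 bears a complex I name, and its protein is known as a subunit of complex IV. It was 28.4, 34.0, 28.02, 31.2 and 31.04 CPM in WT ns and 55.7, 55.9, 58.2, 52.1 and 48.3 CPM in WT LPS. The log2 fold change was 0.82 ± 0.08 in WT (adjusted p = 7.12e-08) and 0.83 ± 0.08 in KO (adjusted p = 1.23e-08). Its paralogue Ndufa4l2, known from hypoxic cells, had at most 6 counts in any of these samples. Per kilobase of transcript, medians of Ndufa4 were 67.5 to 123 CPM over the 4 groups and no sample exceeded 0.226 CPM for Ndufa4l2.

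The 8 assembly factors, which help build complex I without staying in it, had 4 higher in KO and 3 in WT, with medians of 0.20 and 0.12. Ndufaf4 was higher in both genotypes, by 0.72 ± 0.13 in WT (adjusted p = 5.78e-05) and 0.33 ± 0.11 in KO (adjusted p = 0.0185). In WT LPS its values were 48.0, 37.7, 26.5, 29.6 and 41.0 CPM, all above the 24.8, 20.5, 20.2, 23.5 and 21.6 CPM of WT ns. Ndufaf2 had the lowest value, -0.18 ± 0.13 in KO (adjusted p = 0.251) and -0.26 ± 0.14 in WT (adjusted p = 0.131). A further 35 tested assembly factors outside the Ndufaf symbols, a list taken for comparison, had 14 higher and 1 lower in KO and 16 higher and 2 lower in WT, with medians of 0.16 and 0.18. Of all genes, 26.7% were higher and 27.1% lower in KO and 24.8% and 28.4% in WT.

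Complex II has 4 subunits, all nuclear, and the order of their changes was the same in WT and KO. Sdhb, the iron-sulfur subunit, was 51.3, 51.0, 61.5, 48.7 and 47.3 CPM in WT ns and 89.7, 86.5, 86.8, 80.0 and 79.2 CPM in WT LPS. In KO it ran from 49.5 to 56.0 CPM (median 50.2) with ns and from 79.9 to 90.1 CPM (median 86.6) with LPS, so neither genotype had an overlap. The log2 fold change was 0.69 ± 0.06 in WT (adjusted p = 8.39e-09) and 0.76 ± 0.06 in KO (adjusted p = 4.77e-10). The membrane anchors were higher by less: Sdhd by 0.47 ± 0.07 and 0.62 ± 0.06, and Sdhc by 0.40 ± 0.06 and 0.47 ± 0.06, in WT and KO. Sdha, the flavoprotein that holds the succinate site, moved least. Sdha was 171, 158, 179, 173 and 153 CPM in WT ns and 185, 185, 182, 189.9 and 176 CPM in WT LPS, with WT ns 4 inside the LPS range. Its log2 fold change was 0.13 ± 0.06 in WT (adjusted p = 0.0632) and 0.19 ± 0.05 in KO (adjusted p = 0.00532). Over all 32 samples Sdhb was called in WT (1.00 ± 0.27, adjusted p = 0.00537) and not in KO (0.51 ± 0.23, adjusted p = 0.0988), and the other 3 in neither.

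In the 24 samples, all 9 tested genes of complex III were higher in both genotypes, with medians of 0.58 in KO and 0.59 in WT. The small subunits Uqcrq and Uqcr11, which hold no redox centre, led. Uqcrq was 18.6, 21.3, 27.3, 15.7 and 18.3 CPM in WT ns and 43.2, 41.7, 37.7, 38.0 and 37.3 CPM in WT LPS, and in KO its median rose from 18.7 to 40.3 CPM. Its log2 fold change was 0.96 ± 0.10 in WT (adjusted p = 1.61e-07) and 1.14 ± 0.10 in KO (adjusted p = 3.9e-09). Uqcr11 gave 0.87 ± 0.12 in WT (adjusted p = 2.1e-06) and 1.13 ± 0.11 in KO (adjusted p = 1.73e-08). The catalytic subunits followed. Cyc1, cytochrome c1, was 50.9, 51.9, 69.1, 41.1 and 51.3 CPM in WT ns and 93.2, 88.5, 76.3, 78.7 and 89.1 CPM in WT LPS, a change of 0.69 ± 0.09 (adjusted p = 1.79e-06), with 0.72 ± 0.08 in KO (adjusted p = 2.73e-07). Uqcrfs1, the Rieske iron-sulfur protein, was higher by 0.36 ± 0.06 in WT and 0.46 ± 0.06 in KO, and the core protein gene Uqcrc1 by 0.27 ± 0.06 and 0.32 ± 0.06. The smallest change was in Uqcrc2, the other core protein gene, at 0.16 ± 0.05 in WT and 0.15 ± 0.05 in KO. Over all 32 samples, Uqcrq and Cyc1 were called in both genotypes and Uqcr10, Uqcr11 and Uqcrb in WT alone. Uqcrc1, Uqcrc2, Uqcrfs1 and Uqcrh were then called in neither.

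Complex IV had 11 of 13 tested members higher in each genotype and 1 lower, with medians of 0.79 in KO and 0.59 in WT. Cox4i1, an ubiquitous subunit, was 86.4, 95.6, 121, 87.0 and 95.0 CPM in WT ns and 139, 151, 149, 132 and 133 CPM in WT LPS. The change was 0.53 ± 0.08 in WT (adjusted p = 4.97e-06) and 0.67 ± 0.07 in KO (adjusted p = 6.09e-08). Cox5a was higher by 0.78 ± 0.10 and 0.86 ± 0.09, Cox7a2 by 0.59 ± 0.09 and 0.62 ± 0.09, and Cox8a by 0.70 ± 0.09 and 0.84 ± 0.08, in WT and KO. Cox6a1 was higher by 0.46 ± 0.10 in WT and 0.79 ± 0.09 in KO. The genotype-by-LPS interaction was not called for these or any other member. Over all 32 samples, Cox6a2 and Cox5a were called higher in both genotypes and Cox7a2l lower in KO. Cox6b2 and Cox6c were then called in neither genotype, and the other tested members of the complex in WT alone.

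Several complex IV subunits have a second gene known from heart, muscle, lung or testis. Per kilobase of transcript, group medians of Cox4i1 were 128 to 213 CPM, while Cox4i2 did not exceed 0.56 CPM in any sample. Medians of Cox8a were 82.5 to 145 CPM and Cox8b did not exceed 0.322 CPM. Medians of Cox7a2 were 29.9 to 47.2 CPM and Cox7a1 did not exceed 1.29 CPM. The heart and muscle form Cox6a2 was low but present, with medians of 1.73 to 7.79 CPM per kilobase against 70.1 to 119 CPM for Cox6a1. Cox6a2 had the largest log2 fold change of all members. It was 1.45, 1.30, 1.85, 1.39 and 0.929 CPM in WT ns and 3.10, 3.16, 4.47, 5.63 and 1.83 CPM in WT LPS, with WT LPS 8+9 inside the ns range. In KO it ran from 0.896 to 1.56 CPM with ns and from 3.13 to 6.63 CPM with LPS, without overlap. The change was 1.37 ± 0.27 in WT (adjusted p = 0.000227) and 2.15 ± 0.25 in KO (adjusted p = 4.17e-07). Cox6a2 lies inside the span of Itgad on the opposite strand, and as the strand setting of the counting is not given in the sources used here, reads of the pair cannot be told apart. Itgad itself fell by 0.80 in KO (adjusted p = 0.026) and fell by 1.53 in WT (adjusted p = 0.000506).

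Complex V makes the ATP, and in the 24 samples all 14 members were higher in both genotypes, with medians of 0.62 in KO and 0.48 in WT. Atp5a1 and Atp5b encode the subunits around the catalytic sites. Atp5b was 272, 292, 290.3, 266 and 290.2 CPM in WT ns and 572, 535, 498, 496 and 529 CPM in WT LPS. The change of Atp5b was 0.89 ± 0.06 in WT (adjusted p = 5.34e-10) and 0.89 ± 0.06 in KO (adjusted p = 1.16e-10). Atp5a1 was higher by 0.55 ± 0.06 and 0.58 ± 0.05. The ring of c subunits is encoded by Atp5g1, Atp5g2 and Atp5g3, whose mature protein is known to be the same, and the genes changed unequally. Atp5g1 was 19.6, 20.2, 22.3, 19.4 and 19.8 CPM in WT ns and 44.9, 38.1, 38.4, 39.1 and 39.0 CPM in WT LPS, a change of 0.97 ± 0.07 (adjusted p = 5.61e-10), with 1.06 ± 0.06 in KO (adjusted p = 3.54e-11). Atp5g3 was higher by 0.92 ± 0.07 and 0.94 ± 0.06 in WT and KO, and Atp5g2 by 0.38 ± 0.08 and 0.47 ± 0.08. The smallest change of the complex was Atp5l in KO, 0.32 ± 0.10 (adjusted p = 0.011), and Atp5j2 in WT, 0.26 ± 0.08 (adjusted p = 0.0104). Over all 32 samples, Atp5g1, Atp5g3, Atp5b and Atp5d were called in both genotypes. Atp5c1, Atp5g2, Atp5j, Atp5j2 and Atp5k were then called in neither, and the other members of the complex in WT alone.

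Cox7a2l was the exception to the direction of its complex. Its protein, related to Cox7a2, is known to join complex III to complex IV in supercomplexes. Cox7a2l (chr17:83809346-83821762, minus strand, GRCm39) was 63.7, 61.3, 66.2, 60.5 and 53.6 CPM in WT ns and 41.1, 54.4, 52.4, 47.7 and 43.2 CPM in WT LPS, with WT LPS 3 just inside the ns range. In KO it ran from 72.0 to 85.9 CPM (median 76.2) with ns and from 48.0 to 62.3 CPM (median 60.5) with LPS, without overlap. The log2 fold change was -0.36 ± 0.08 in WT (adjusted p = 0.000928) and -0.38 ± 0.08 in KO (adjusted p = 0.000244). Over all 32 samples it was -0.87 ± 0.30 in KO (adjusted p = 0.0316) and 0.04 ± 0.35 in WT (adjusted p = 0.95). KO ns 6 held 369 CPM and WT LPS 7 held 161 CPM of this gene, and without WT LPS 7 alone the WT value was -0.28.

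**Figure D4:**
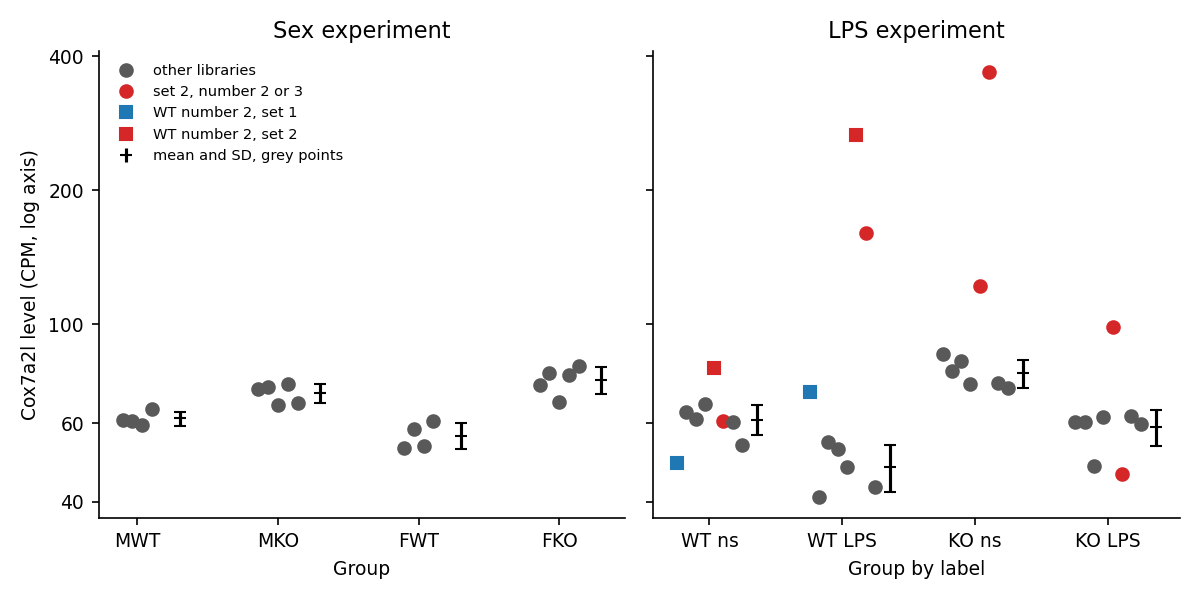
Cox7a2l level (CPM, log axis) in every sample of the sex experiment (left) and the LPS experiment (right) by labelled group; bars are mean and SD of the grey points. Grey KO points lie above grey WT points in each sex and under ns, the LPS means lie below the ns means of the same genotype with 1 WT LPS point just inside the WT ns range, and red points of set 2 numbers 2 and 3 reach 369 CPM.

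The comparison of KO with WT asked whether loss of P2RY12 alone moved these genes. In the sex experiment, Cox7a2l was the only member called: it was higher in KO, and no other subunit passed in either sex. The 90 tested members were called 0 times in males, where 0.00946% of all genes were called, 1 time in females (0.164%) and 1 time with the sexes averaged (0.432%). Their median log2 fold change was -0.11 in males and 0.10 in females. At an unadjusted p under 0.05 there were 7 members in males, where 6.85% of all genes were. DESeq2 called 2 members in females, where it called 0.662% of all genes.

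In males, Cox7a2l was 61.1, 60.7, 59.5 and 64.7 CPM in WT and 71.7, 72.5, 65.9, 73.6 and 66.5 CPM in KO. In females it was 52.9, 58.3, 53.3 and 60.6 CPM in WT and 73.2, 77.9, 67.1, 77.0 and 80.6 CPM in KO. Every KO column was above every WT column of its sex. The difference was 0.30 ± 0.05 on the log2 scale averaged over the sexes (adjusted p = 0.00679), 0.42 ± 0.07 in females (adjusted p = 0.0151) and 0.19 ± 0.07 in males (adjusted p = 0.719). The difference between the sexes was not called (interaction 0.23 ± 0.10, adjusted p = 0.999). The call in females was lost without FKO 4 (adjusted p = 0.0633), FKO 5 (0.068), FWT 1 (0.101) or FWT 3 (0.109), while that of the average kept an adjusted p between 0.00207 and 0.0277 over all 18 such omissions.

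In the LPS experiment no member was called between KO and WT. With ns, 0 of 85 passed over 32 samples, where 0.0883% of all genes did, and 0 over 24 samples, where 0.272% did. With LPS, 0 passed over 32 samples (0.0946% of all genes) and 0 over 24 (0.316%). Unadjusted p-values under 0.05 numbered 2 and 7 with ns, where 8.92% and 13.2% of all genes had one over 32 and 24 samples, and 2 and 7 with LPS, where 6.04% and 11.4% had one. DESeq2 called 0 members over the 32 samples, where it called 0.29% of all genes with ns and 0.315% with LPS. The median of the 85 with ns was 0.42 over 32 samples and -0.04 over 24, and with LPS -0.22 and 0.06. For Cox7a2l the 24 samples gave 0.32 ± 0.08 with ns (adjusted p = 0.112) and 0.30 ± 0.08 with LPS (adjusted p = 0.105). KO ns and WT ns did not overlap for this gene, and KO LPS and WT LPS did.

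The genotype-by-LPS interaction asked whether the response differed between genotypes. It was called for 0 of 85 members over 32 samples (0% of all genes) and for 0 over 24 samples (0.00633%), with DESeq2 also at 0 over 32 samples (0.0189% of all genes). Unadjusted p-values under 0.05 numbered 1 and 8, where 4.77% and 5.08% of all genes had one. The median was -0.63 over 32 samples and 0.08 over 24. The median of the difference in response changed sign when the 8 libraries were left out.

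The sexes were compared in the same way. Between female and male WT, 0 of 90 members were called, where 0.0725% of all genes were, with 35 at an unadjusted p under 0.05, as were 7.5% of all genes, and 85 of 90 at or below 0 (median -0.21). The sex-by-genotype interaction was called for 0 members (0% of all genes), with 22 at an unadjusted p under 0.05, as were 2.77% of all genes, and a median of 0.20. DESeq2 called 0 members in both, where it called 0.483% and 0% of all genes. Summed over the 91 members, MWT columns held 2795, 2846, 2781 and 3519 CPM and FWT columns 2506, 2860.5, 2482 and 2559.9 CPM, while MKO ran from 2592 to 2891 CPM and FKO from 2610.0 to 3004 CPM. MWT 5 and FWT 2 were the highest of their groups. They also held the most neutrophil marker RNA, 48214 and 28621 CPM over 8 genes against 720.0 to 7667 CPM in the others, and the least microglia marker RNA, 24624 and 24613 CPM against 27454 to 39069 CPM. The WT ns samples of the LPS experiment did not show this pairing. WT ns 3 and WT ns 8 held 17265 and 16058 CPM of neutrophil markers with member sums of 3406 and 3256 CPM. WT ns 4, with the highest member sum (3695 CPM), held 1558 CPM. The part of neutrophil RNA in the member sums was not tested. Without MWT 5 the median in males was -0.00353, that of female against male WT -0.12 and that of the interaction 0.12. Without FWT 2 the median in females was 0.17, that of female against male WT -0.26 and that of the interaction 0.25. Cox7a2l kept its call averaged over the sexes without either column.

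**Figure D5:**
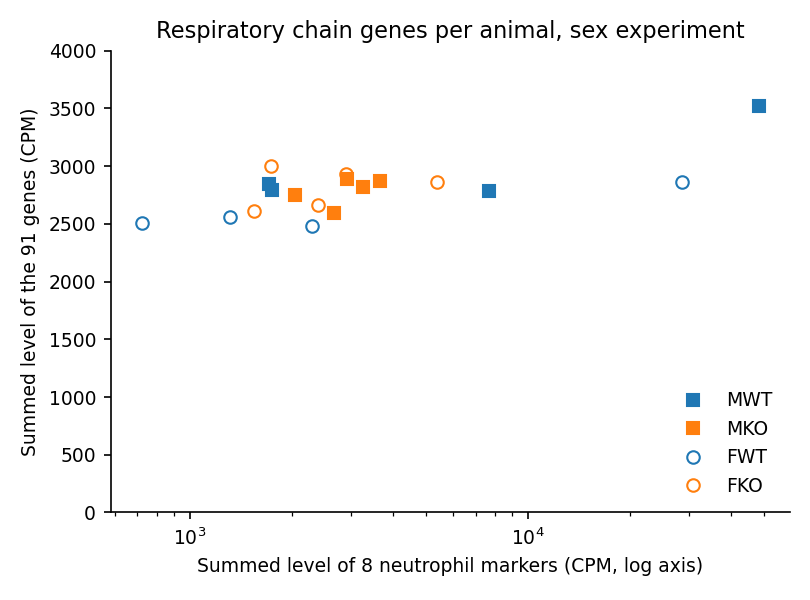
Summed level of the 91 genes (CPM, linear axis from 0) against the summed level of 8 neutrophil markers (CPM, log axis), 1 point per column of the sex experiment. MWT 5, with 3519 CPM, has the most neutrophil marker RNA (48214 CPM), and the other 17 columns lie between 2482 and 3004 CPM.

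Mitochondrially encoded subunits, which join the nuclear ones in complexes I, III, IV and V, were also counted. In the sex experiment, averaged over the sexes, 7 of 13 were higher in KO (ND1, ND2, ND4, ND5, ND6, COX1 and CYTB), where 0.419% of all genes were. The median log2 fold change over the 13 was 0.37. Their sum was 12949 to 16679.7 CPM in KO and 10363 to 12683 CPM in WT columns, without overlap. In the LPS experiment 10 of 13 were tested over 32 samples and 8 over 24. There the sums of KO and WT overlapped in the 24 samples with WT number 2 apart. With ns they were 10108 to 13155 CPM in KO and 7729 to 10689 CPM in WT, and with LPS 13464 to 16347 and 10166 to 15672 CPM. With LPS in the 24 samples, 5 of 8 were higher in KO cells, where 26.7% of all genes were, and 2 in WT cells, where 24.8% were. The medians were 0.28 and 0.22. The WT count is near the share of all genes, and no difference between genotypes is read from these counts.

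Genes that work beside the chain gave the following counts in the 24 samples. There, 26.7% of all genes were higher and 27.1% lower in KO, and 24.8% and 28.4% in WT. Among 13 electron carrier genes, 8 were higher and 1 lower in KO and 5 higher in WT. These genes make ubiquinone, encode cytochrome c, or encode the electron transfer flavoprotein and its dehydrogenase (Etfa, Etfb and Etfdh). Cycs, cytochrome c, was higher by 0.83 ± 0.10 in KO (adjusted p = 3.49e-07) and 0.95 ± 0.11 in WT (adjusted p = 2.15e-07), and Coq7, of ubiquinone synthesis, by 1.32 ± 0.10 and 1.17 ± 0.11. Among 17 genes of the tricarboxylic acid cycle, 13 were higher and 2 lower in KO and 14 and 2 in WT. Idh3a, of the NAD-dependent isocitrate dehydrogenase, was higher by 0.94 ± 0.09 in KO and 1.19 ± 0.10 in WT, and Idh2, the NADP-dependent enzyme of mitochondria, was lower (-0.58 ± 0.10 and -0.75 ± 0.11). Over the 32 samples, 2 and 4 carrier genes and 8 and 8 cycle genes were higher in KO and WT, where 13.1% and 14.8% of all genes were.

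Of 8 genes through which activation acts on respiration, 6 were higher in KO and 7 in WT, and 1 was lower in each. Acod1, which makes itaconate, an inhibitor of succinate dehydrogenase, ran from 0.571 to 11.1 CPM in WT ns and from 18.7 to 194 CPM in WT LPS. Its log2 fold change was 5.25 ± 0.74 in WT (adjusted p = 1.01e-05) and 5.76 ± 0.74 in KO (adjusted p = 3.16e-06). Ucp2, a carrier of the inner membrane, was higher by 1.28 ± 0.17 and 1.41 ± 0.15 in WT and KO. Pdk1, which inhibits pyruvate dehydrogenase, was lower (-1.08 ± 0.10 and -0.85 ± 0.09).

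Of 13 regulators of mitochondrial gene expression, 4 were higher and 4 lower in KO and 5 and 4 in WT. Of all genes, 26.7% were higher and 27.1% lower in KO and 24.8% and 28.4% in WT. These counts are therefore not read as a result about the regulators. Ppargc1b, a coactivator of respiratory genes, ran from 1.21 to 2.89 CPM in WT ns and from 6.57 to 16.0 CPM in WT LPS. Its change was 2.19 ± 0.26 in WT (adjusted p = 4.73e-07) and 1.90 ± 0.24 in KO (adjusted p = 8.06e-07). The factors whose sites are known from promoters of respiratory genes did not move alike: Nrf1 changed by -0.51 ± 0.08 and -0.48 ± 0.07, Gabpa by -0.45 ± 0.07 and -0.44 ± 0.06, and Esrra by 0.49 ± 0.10 and 0.47 ± 0.09, in WT and KO. Gabpa overlaps the member Atp5j on the opposite strand. Tfam, the mitochondrial transcription factor, was higher in WT (0.23 ± 0.08, adjusted p = 0.0201) and not called in KO (0.02 ± 0.07, adjusted p = 0.813). Ppargc1a did not pass the filter and did not exceed 0.372 CPM.

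Promoters of members that rose together, and of Cox7a2l, which fell, are shown because those factors are known to bind such genes. Sequences are from RefSeq with the build GRCm38.p6, in which 74 of the 91 members matched by symbol with 79 promoters. The 250 bases before each start were searched on both strands for GCATGCG (NRF1), CCGGAAG (GABPA), AAGGTCA (ESRRA) and ATGGCGG (YY1). The NRF1 motif was in 10 of 79 member promoters (12.7%) and in 3.02% of all 32851 promoters of that length. The GABPA motif was in 14 (17.7%, against 6.91%), the ESRRA motif in 5 (6.33%, against 4.08%) and the YY1 motif in 6 (7.59%, against 2.21%). A match is a description of letters and not a binding site. The 180 bases before the start are given 5′ to 3′ on the gene's strand, with matches in capitals, for Sdhb (chr4:140961091-140961270, plus strand, NRF1), Uqcr11 (chr10:80406822-80407001, minus, GABPA), Cox6a1 (chr5:115348959-115349138, minus, NRF1 overlapping on both strands and GABPA on the other strand), Atp5g3 (chr2:73911327-73911506, minus, ESRRA on the other strand) and Cox7a2l (chr17:83514334-83514513, minus, no match).
Sdhb: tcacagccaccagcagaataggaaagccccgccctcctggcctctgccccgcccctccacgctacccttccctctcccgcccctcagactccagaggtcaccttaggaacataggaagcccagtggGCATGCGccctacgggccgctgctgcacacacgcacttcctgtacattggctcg
Uqcr11: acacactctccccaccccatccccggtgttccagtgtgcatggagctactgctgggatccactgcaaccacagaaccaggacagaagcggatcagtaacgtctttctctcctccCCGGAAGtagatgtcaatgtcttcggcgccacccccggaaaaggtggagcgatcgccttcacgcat
Cox6a1: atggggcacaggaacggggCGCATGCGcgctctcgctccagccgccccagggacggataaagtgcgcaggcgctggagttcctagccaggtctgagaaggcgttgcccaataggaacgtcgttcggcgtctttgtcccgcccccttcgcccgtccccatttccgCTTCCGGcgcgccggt
Atp5g3: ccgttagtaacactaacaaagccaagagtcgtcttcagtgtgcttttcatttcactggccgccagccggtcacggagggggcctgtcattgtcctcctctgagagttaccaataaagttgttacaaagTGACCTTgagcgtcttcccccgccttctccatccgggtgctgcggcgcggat
Cox7a2l: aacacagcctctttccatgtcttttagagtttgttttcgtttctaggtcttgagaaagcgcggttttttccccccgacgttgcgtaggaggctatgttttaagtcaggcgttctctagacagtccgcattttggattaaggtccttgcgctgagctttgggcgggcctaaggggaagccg

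With LPS in KO, over the 24 samples, the log2 fold changes of the genes shown were 0.76 ± 0.06 for Sdhb, 1.13 ± 0.11 for Uqcr11, 0.79 ± 0.09 for Cox6a1, 0.94 ± 0.06 for Atp5g3 and -0.38 ± 0.08 for Cox7a2l. None of the 4 motifs was found in the window of Cox7a2l, whose start in RefSeq was not the start of a transcript in the other annotation at hand. Of the 74 matched members, 29 had a match to any of the 4 motifs, so most members lacked one as Cox7a2l did. The rising genes shown all carry a match and do not stand for the members. A link between motifs and direction was not tested.

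Counting sets a limit for some members. In the sex table the length of every gene is its whole span, introns included, and 29 of the 91 members overlap the span of another gene. Many members also have processed pseudogenes with near-identical sequence, and how reads that fit several places were counted is not given in the sources used here.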

How the data were processed

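Raw counts of reads per gene were deposited in 1 table for each of 2 experiments, with 18 columns for the sexes and 33 for LPS. The deposited counts are whole numbers without normalization. The submitters' processing notes name FastQC, STAR 2.6.1, featureCounts, Subread, DESeq2 and the build GRCm39, and the counting options are not given in the sources used here. Of 57 labelled libraries, 6 are repeats that lack a column and were not used here. Columns were matched by name, with 0 left without a sample.

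Genes were filtered with filterByExpr, scaled by TMM and tested two-sided with the quasi-likelihood F test of edgeR 4.0.16 in R 4.3.3, with 1 mean per group and, in the LPS experiment, the library set as a covariate. This tested 31709 genes in the sex experiment, and 15857 with LPS (15810 in 24 samples). P-values were adjusted by Benjamini-Hochberg over all genes tested. WT LPS 8 and 9 were summed because their counts differed by less than any other pair within a group (chi-square over its degrees of freedom 1.86, against at least 8.32), which exceeds sampling noise and is a judgement. Levels are CPM, a count relative to its TMM-scaled library total in M counts. Scripts were tested on simulated data. Alternatives used DESeq2 1.42.0, RLE scaling, no filter, an added minimum of 0.5 for the log2 change, a replicate block, each library set alone, and libraries left out.

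Members and lists were chosen with earlier results of these data known. Named genes were the subunits of complex II, 8 core or catalytic members, the isoform pairs, the 5 highest and 5 lowest called per comparison and the extremes of each complex. Values are given here for the leading ones of each group, and the rest by count.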

Additional observations from a re-analysis of the deposited data

Results flagged for a closer look

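In 27 of 56 sums of respiratory chain genes per group of 4 to 8 samples, 1 library lay far above the others, measured by its gap to the nearest sample divided by the range of its group, where chance alone gives about 1 in 20 groups. All 27 came from 5 libraries and were high. The 56 sums are not independent, because each group has a sum over all members and a sum for each class within it. The same library is therefore counted several times, and 27 of 56 cannot be set against the rate of 1 in 20.

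WT LPS 7 stood apart in all 7 sums, with 15323 CPM over all members against 4800 CPM in the next sample (gap 0.966). Its gaps were 0.969 for complex I, 0.91 for the assembly factors, 0.949 for complex II, 0.964 for complex III, 0.941 for complex IV and 0.958 for complex V. KO ns 6 stood apart in all 7 as well, with 12419 CPM against 4573 CPM over all members (gap 0.856). Its gaps were 0.871 for complex I, 0.753 for the assembly factors, 0.736 for complex II, 0.91 for complex III, 0.872 for complex IV and 0.84 for complex V. KO LPS 5 had 9749 CPM against 5195 CPM over all members (gap 0.864), with gaps of 0.892 for complex I, 0.843 for the assembly factors, 0.857 for complex II, 0.831 for complex III, 0.865 for complex IV and 0.839 for complex V.

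In the sex experiment MWT 5 stood apart over all members (gap 0.913) and for complex III (0.864), complex IV (0.947) and complex V (0.913). FWT 2 stood apart for complex III, with 348 CPM against 269 CPM (gap 0.876), and for complex IV, with 418 CPM against 323 CPM (gap 0.891). These are the 2 columns with the highest neutrophil marker sums, 48214 and 28621 CPM.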

How the results depend on the processing

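Of the counts of called members under all alternatives, 185 stayed within 1.5 times the reported count and 18 did not. For KO against WT, an added minimum of 0.5 for the log2 change gave 0 members in females and 0 averaged over the sexes, DESeq2 gave 2 in females, fitting only the 2 groups compared gave 0 in females, and leaving out 1 column at a time gave 0 to 1 in females. For LPS against ns in KO, 11 members were called, where 28.3% of all genes were. Set 1 by itself gave 65 (44.9% of all genes), set 2 by itself 0 (4.65%), and leaving out set 2 numbers 2 and 3 gave 74 (53.8%). The replicate block gave 18 and leaving number 2 out of all 4 groups 7. Leaving out 1 of 4 libraries that stand apart gave 10 to 34. For LPS against ns in WT, 43 were called, where 30.3% of all genes were. The labelled groups gave 0 (0% of all genes), set 2 by itself 0 (3.62%), and leaving out set 2 numbers 2 and 3 gave 66 (53.2%). Leaving out 1 library gave 12 to 60. Counts without a share of all genes beside them show how far the number moved and are not a result about the members. The omissions of set 2 numbers 2 and 3 and of single LPS libraries were chosen after seeing the data.

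Of single genes, 657 values kept direction and side of the threshold, 67 newly passed, 75 no longer passed and 14 reversed. Cox7a2l with LPS in WT, reported at 0.04, was -0.0932 with the replicate block, -0.0527 with WT LPS 8 and 9 apart, -0.35 in set 1, -0.36 without set 2 numbers 2 and 3 and -0.28 without WT LPS 7 (leaving out 1 library gave up to 0.117). In KO, with number 2 left out, Sdha was -0.066, Sdhc -0.024, Sdhd -0.0719, Uqcrfs1 -0.0867, Cox7a2 -0.15 and Ndufa4 -0.0616. In set 2 by itself, Sdhc was -0.0168 and Uqcrfs1 -0.10, and without KO LPS 5 Sdha was -0.0605, where leaving out 1 library gave up to 0.275. The cause was not tested.

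The replicate block gave 0 members in males, 1 in females, 1 averaged, 0 for the sex-by-genotype interaction, 0 for female against male WT, 48 for LPS in WT and 0 for each comparison of KO with WT in the LPS experiment. The share of all genes called with this block is not given here, so these counts are not a result about the members. Numbers were not taken to pair the samples, because no label says that a number marks a shared litter, day or animal. The mean correlation of same-numbered deviations was 0.00677 over 24 pairs in the sex experiment (lowest -0.478). In the LPS experiment it was 0.293 over 45 pairs (lowest -0.228), where other pairs had a mean of -0.00569 (lowest -0.84). Of the samples, 4 of 18 and 11 of 32 correlated best with their own number. Same-numbered libraries of the LPS experiment were thus more alike on average than others, and the part of the number in the results was not tested beyond the block. Depth limits the lowest members most, such as Cox4i2 with at most 23 counts.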
